A study of Mus musculus with 8 samples.

Results

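The genes described here are 10 genes that tell the capillary endothelial cells of the lung apart, out of 17921 genes in the deposited table. They were taken as a list of names, with no threshold on a measured value, and with earlier results of these data known: Car4, Ednrb, Apln, Prx, Aplnr, Gpihbp1, Plvap, Tmem100, Fabp4 and Rbp7. Each was followed through the numbered clusters of structural cells that the authors deposited, as UMIs (unique molecular identifiers, 1 per captured transcript) summed per mouse and as the share of cells with a UMI at equal depth. Male mice received an orthotopic left lung transplant (LTx) with no immunosuppression, and the graft was taken 1 month later and its cells, 10000 of them loaded, were profiled by a 10x 3′ assay that counts transcripts cell by cell. In the B6→B6 group (5 mice) donor and recipient were both C57BL/6, and this group is the control. In the HLA→B6 group (3 mice) the donor was an HLA mouse, of a C57BL/6 line with a human HLA-A2.1 transgene, and the recipient was C57BL/6, and the labels mark these grafts as BOS, bronchiolitis obliterans syndrome. Each mouse was 1 library. The promoter of the transgene and the cells that carry it are not given in the sources used here, and cells of the graft can come from donor or recipient.

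The capillaries of the alveolus are built of a pair of intermingled endothelial cell types. Aerocytes are large cells spread over the gas exchange surface, and in the mouse they are known by Car4, Ednrb and Apln, the ligand apelin. General capillary cells line the rest of the network and can give rise to new capillary cells, and they carry the apelin receptor Aplnr, Gpihbp1 and Plvap. Capillaries of fat, heart and muscle are rich in Fabp4 and Rbp7, genes of lipid and retinol handling.

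Libraries held 868 to 6544 cells and 1669076 to 12445769 UMIs, with a median of 1356 to 1948 UMIs per cell. Of 20778 cells, 5514 were structural and fell into 11 clusters. Clusters 0, 1 and 2, with 2364, 1347 and 529 cells, are called capillary cells here. Cluster 0 carries the deposited name MHC II+ endothelial cells and clusters 1 and 2 the name epithelial cells, but all 3 had endothelial markers. The paper reads cluster 0 as lymphatic endothelial cells, from Tmem100 and Lyve1. Levels of lymphatic markers are not given here, and the endothelial markers below do not tell capillary from lymphatic cells. The summed level of 8 endothelial markers was 15267, 12796 and 19050 CPM in clusters 0, 1 and 2 and 499 CPM in cluster 8, the deposited Krt8+ epithelial cells, where CPM is UMIs of a gene per 1e+06 UMIs in the same sum. Of 6 listed epithelial markers only Epcam, a surface marker, is given here. It was at 2.57, 1.44 and 0 CPM in clusters 0, 1 and 2 and at 439 CPM in cluster 8. For these clusters with the epithelial name, the paper reports the lung epithelial markers Scgb1a1 and Sftpc. Levels of those markers are not given here, and clusters 1 and 2 are given by number. In 4 libraries (HLA→B6 replicate 2 with replicates 1 to 3 of B6→B6) more cell barcodes were shared than separate draws would give, for example 160 between B6→B6 replicate 2 and HLA→B6 replicate 2 where 6.66 were expected. At most 3 barcodes were shared by capillary cells in both libraries of a pair. These linked libraries span both groups and were used as a block in alternatives.

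The 4 members highest in cluster 2 were Car4, Ednrb, Apln and Prx, and the 250 bases before the RefSeq start of each are shown because these genes share their place of expression. The sequences are from RefSeq (GRCm38.p6), 5′ to 3′ on the strand of the gene. Gene positions given further on are from GENCODE, whose outermost start differs for 2 of the 4: the Ednrb window lies inside the GENCODE gene, and the Car4 window ends short of the GENCODE start. Capitals mark the 5-letter core CGGAA of ETS factors or its reverse complement TTCCG, and the core CACCC of KLF factors or its reverse complement GGGTG.
Car4, chr11:84957504-84957753, plus strand: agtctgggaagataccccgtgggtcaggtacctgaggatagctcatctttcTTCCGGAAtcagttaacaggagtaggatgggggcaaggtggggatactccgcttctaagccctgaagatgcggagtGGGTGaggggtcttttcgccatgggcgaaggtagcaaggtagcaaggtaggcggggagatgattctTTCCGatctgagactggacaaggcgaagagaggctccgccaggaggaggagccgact
Ednrb, chr14:103843702-103843951, minus strand: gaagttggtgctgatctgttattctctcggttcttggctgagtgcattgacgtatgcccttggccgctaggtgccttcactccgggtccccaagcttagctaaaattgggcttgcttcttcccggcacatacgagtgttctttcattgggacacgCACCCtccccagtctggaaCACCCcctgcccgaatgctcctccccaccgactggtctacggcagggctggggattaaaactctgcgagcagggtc
Apln, chrX:48034854-48035103, minus strand: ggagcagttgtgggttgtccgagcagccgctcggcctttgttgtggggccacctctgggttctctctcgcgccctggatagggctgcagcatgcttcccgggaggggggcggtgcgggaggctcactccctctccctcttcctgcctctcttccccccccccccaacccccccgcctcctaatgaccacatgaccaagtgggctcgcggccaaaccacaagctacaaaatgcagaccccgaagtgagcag
Prx, chr7:27499074-27499323, plus strand: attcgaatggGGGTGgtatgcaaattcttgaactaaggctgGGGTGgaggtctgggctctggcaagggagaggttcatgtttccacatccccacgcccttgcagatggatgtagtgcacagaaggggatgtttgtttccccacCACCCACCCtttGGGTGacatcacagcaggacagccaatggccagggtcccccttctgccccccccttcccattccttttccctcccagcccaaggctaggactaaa
CGGAA was found 3 times before Car4, where 2 of the matches overlap on opposite strands, and in none of the other 3 windows. CACCC was found 1 time before Car4, 2 times before Ednrb, 5 times before Prx and not before Apln. Of all 27025 promoter windows of that length, 25.4% held CGGAA and 51.3% held CACCC, so these short words are common. The G and C content was 56.4% for Car4, 56.8% for Ednrb, 65.2% for Apln and 56.4% for Prx, against a median of 52% over all windows.

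Car4 (chromosome 11, 84957786 to 84966044, GRCm38) encodes a carbonic anhydrase on the cell surface that interconverts carbon dioxide and bicarbonate. In cluster 2 its level was 6377, 4224, 4810, 5166 and 5966 CPM in B6→B6 replicates 1 to 5 and 7074, 4086 and 3861 CPM in HLA→B6 replicates 1 to 3. The next highest cluster was cluster 0, between 86.8 and 505 CPM, and no mouse of cluster 2 overlapped any mouse of cluster 0. Over the 8 mice the mean was 5196 ± 1173 CPM (SD) in cluster 2, 321 ± 133 in cluster 0 and 194 ± 131 in cluster 1, and clusters 0 and 1 overlapped. The clusters were made from these counts, so the levels by cluster are a description with no test.

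**Figure D1:**
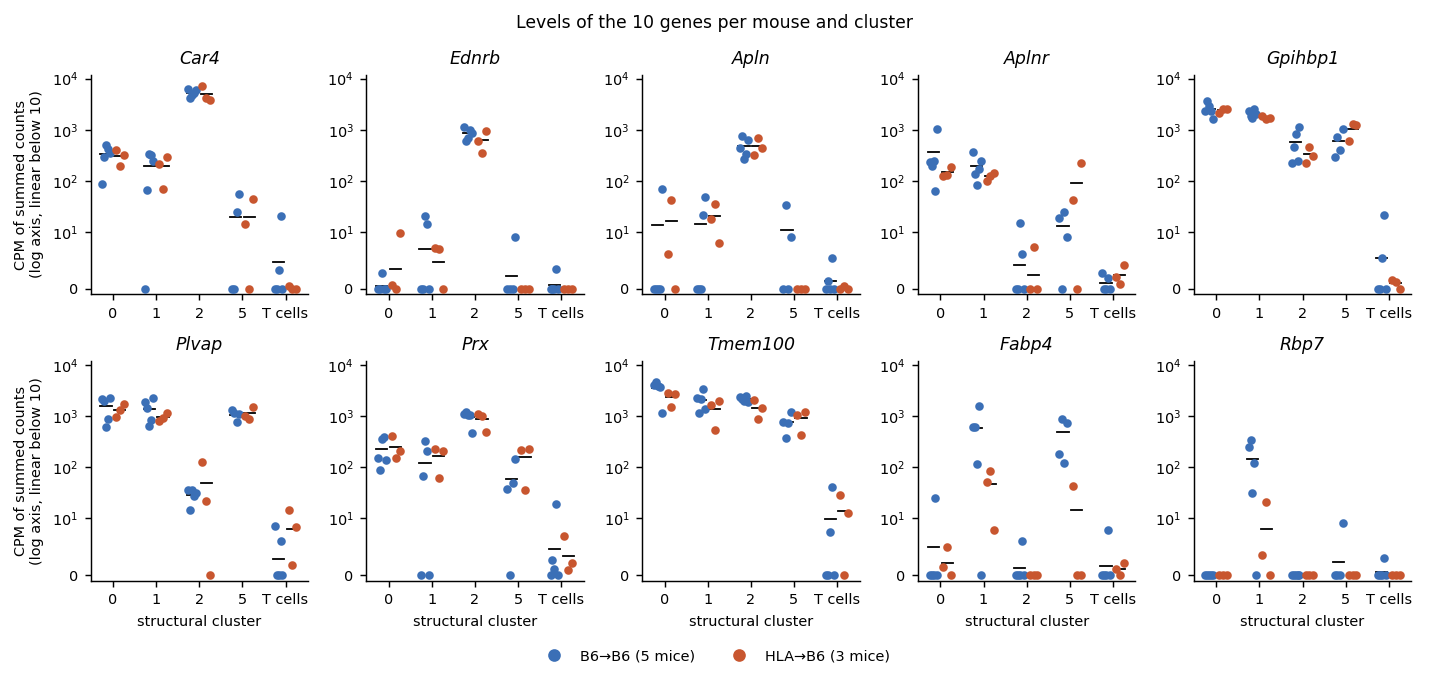
Level of each of the 10 genes in structural clusters 0, 1, 2 and 5 and in T cells (x axis), in CPM of counts summed per mouse (y axis, logarithmic and linear below 10). Each point is 1 mouse with at least 10 cells, coloured by group, and short lines are group means. Car4, Ednrb, Apln and Prx are highest in cluster 2, Aplnr, Gpihbp1 and Plvap are lower there than in clusters 0 and 1, and Rbp7 is at 0 in clusters 0 and 2.

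Ednrb (chromosome 14, 103814625 to 103844402) encodes the endothelin B receptor. In cluster 2 it stood at 1109, 605, 691, 985 and 875 CPM in B6→B6 and at 608, 344 and 954 CPM in HLA→B6 mice. Its next highest mean was 19.6 CPM in cluster 6, with no overlap, and it was at 1.66 ± 3.44 CPM (SD, n = 8) in cluster 0 and 6.18 ± 7.88 in cluster 1. Its ligand Edn1 had the opposite order, with a pooled level of 759, 716 and 39.5 CPM in clusters 0, 1 and 2, and the other receptor, Ednra, was at 1.47, 2.16 and 0 CPM there. Apln (chromosome X, 48025146 to 48034853) stood at 441, 750, 269, 340 and 625 CPM in cluster 2 of B6→B6 and at 320, 703 and 442 CPM in HLA→B6 mice. Its mean was 486 ± 184 CPM (SD, n = 8) in cluster 2 against 14.8 ± 26.6 in cluster 0 and 16.4 ± 18.1 in cluster 1, again with no overlap. The receptor of apelin, Aplnr, was highest in clusters 0 and 1, so ligand and receptor were high in different clusters of the same grafts.

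Prx (chromosome 7, 27499324 to 27520214) encodes periaxin, a scaffold protein best known from the myelin of peripheral nerve. Its level in cluster 2 was 1073, 1182, 1039, 1033 and 469 CPM in B6→B6 and 1088, 989 and 488 CPM in HLA→B6 mice. The lowest of these, B6→B6 replicate 5 and HLA→B6 replicate 3, were still above every mouse of cluster 0, where the mean was 234 ± 126 CPM (SD, n = 8). In cluster 1 the mean was 138 ± 121 CPM (SD, n = 8), with B6→B6 replicates 1 and 5 at 0, and clusters 0 and 1 overlapped.

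Gpihbp1 (chromosome 15, 75596628 to 75599481) encodes the protein that carries lipoprotein lipase to the capillary lumen. Its level in cluster 0 was 2324, 3713, 2880, 2286 and 1609 CPM in B6→B6 and 2150, 2504 and 2523 CPM in HLA→B6 mice. In cluster 1 it stood at 2286, 1882, 1701, 2559 and 1995 CPM in B6→B6 and at 1876, 1634 and 1699 CPM in HLA→B6 mice. These clusters overlapped, and every mouse of both lay above every mouse of cluster 2, with a mean of 486 ± 329 CPM (SD, n = 8). The lipase itself, Lpl, had a pooled level of 365, 278 and 16.9 CPM in clusters 0, 1 and 2.

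Plvap (chromosome 8, 71497765 to 71511752) encodes the protein of the diaphragms that close endothelial fenestrae and caveolae, and Aplnr (chromosome 2, 85136225 to 85139923) encodes the apelin receptor. Plvap had a mean of 1482 ± 630 CPM (SD, n = 8) in cluster 0 and 1229 ± 570 in cluster 1, which overlapped, and of 36.8 ± 38.8 in cluster 2. Cluster 5, the deposited Vcam1+ endothelial cells, was as high for Plvap, between 770 and 1533 CPM in 7 mice, and overlapped cluster 1. Aplnr stood at 236, 199, 250, 62.8 and 1049 CPM in cluster 0 of B6→B6 and at 122, 131 and 187 CPM in HLA→B6 mice. The value of 1049 rests on 15 UMIs of B6→B6 replicate 5. In cluster 2 Aplnr was between 0 and 14.8 CPM.

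Tmem100 (chromosome 11, 90030348 to 90036508) encodes a membrane protein induced by ALK1 signalling in endothelium. It was high in all 3 clusters. In cluster 0 it stood at 4053, 4597, 3791, 3730 and 1119 CPM in B6→B6 and at 2817, 1491 and 2680 CPM in HLA→B6 mice. Means were 1895 ± 513 CPM (SD, n = 8) in cluster 2 and 1788 ± 839 in cluster 1, and these 3 clusters overlapped one another. Acvrl1, the gene of ALK1 itself, had a pooled level of 1128, 1039 and 1663 CPM in clusters 0, 1 and 2.

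Fabp4 (chromosome 3, 10204088 to 10208576), a fatty acid binding protein, and Rbp7 (chromosome 4, 149449687 to 149454978), a retinol binding protein, followed neither order. Rbp7 had no UMI in 2364 cells of cluster 0, which allows a share of up to 0.127%, and none in 529 cells of cluster 2, which allows up to 0.567%. These limits are for cells with a UMI, not for cells that express the gene. All but 1 of its UMIs in the 11 clusters were in cluster 1, where there were 100. Fabp4 had 1124 UMIs in cluster 1, 128 in cluster 5, 6 in cluster 0 and 2 in cluster 2. In cluster 1 these came from 46 of 1347 cells, and 35 of the 46 were of B6→B6 replicate 4, which held 602 of the 1347 cells.

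In 25 cells of cluster 1 Fabp4 had 5 or more UMIs, and 20 of them were of B6→B6 replicate 4. Their summed level of Rbp7 was 2855 CPM, against 2.26 CPM in the 1301 cells of cluster 1 without Fabp4. Other genes with the highest ratio between these cells included Timp4 (1383 and 0 CPM), Tcf15 (1059 and 16.6 CPM) and Aqp7, a glycerol channel (530 and 0.753 CPM). Gpihbp1 was at 3208 and 2135 CPM, Cd36, a fatty acid carrier, at 4267 and 1796 CPM, and Tmem100 at 88.3 and 2467 CPM. Of the endothelial markers, Cdh5 was at 1177 and 1145 CPM and Pecam1 at 765 and 1270 CPM. Plvap was at 265 and 907 CPM and Prx at 0 and 199 CPM. The cells were selected by their Fabp4 count after the values were seen, so these levels are a description of 25 cells, most of them of 1 mouse.

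Outside the structural cells most members were near background. T cells, which should lack these genes, had a UMI in 0.419% of cells for Car4, 0.409% for Gpihbp1 and 1.147% for Tmem100 when each cell was thinned to 500 UMIs. Their median depth was 1648 UMIs before thinning, against 1068.5, 886 and 1869 in clusters 0, 1 and 2. The exceptions were Fabp4 in monocytes (17.3% of cells, 295 CPM) and both Car4 (9.59% of cells, 222 CPM) and Fabp4 (5.16% of cells, 145 CPM) in alveolar macrophages. In the same macrophages Gpihbp1 was found in 0.127% and Ednrb in 0.0976% of cells.

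Car4 and Ednrb were found with general capillary genes in fewer cells than the product of the shares of both genes gives, over clusters 0, 1 and 2 together. At 500 UMIs per cell, with 3900 capillary cells deep enough, 21.9% of cells had Car4, 56.0% had Gpihbp1 and 8.54% had both, where the product of the shares is 12.3%. Ednrb and Gpihbp1 were found together in 0.573% of cells where the product is 2.46%, and Ednrb and Aplnr in 0.0357% where it is 0.266%. Car4 and Ednrb shared 3.83% of cells, 3.99 times their product of 0.959%. Gpihbp1 and Aplnr shared 3.80% where the product is 3.402%. Within a cluster these departures were smaller, with ratios for Car4 and Gpihbp1 of 0.972, 1.09 and 0.928 in clusters 0, 1 and 2, and of 1.04 for Car4 and Ednrb in cluster 2. These shares pool the 8 mice and were not tested.

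**Figure D2:**
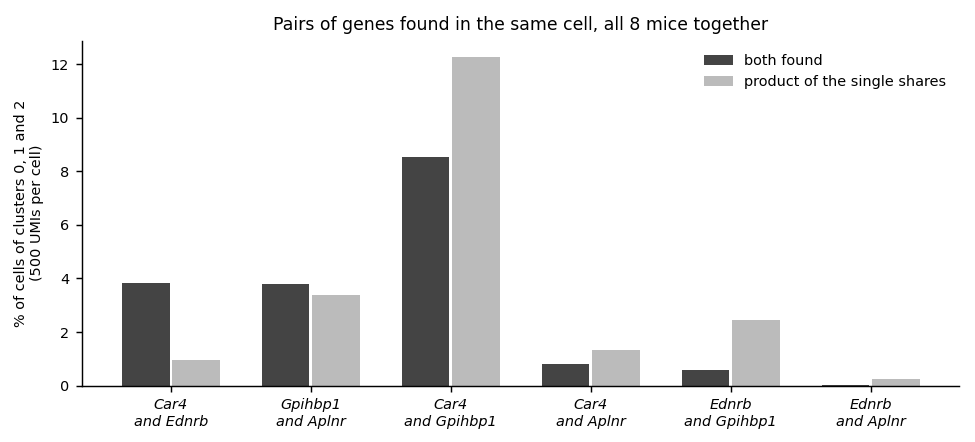
Share of capillary cells in which both genes of a pair had a UMI at 500 UMIs per cell (y axis, percent of 3900 cells of clusters 0, 1 and 2 of all 8 mice), beside the product of the shares of the 2 genes. Pairs of an aerocyte and a general capillary gene lie below the product, such as 0.573% against 2.46% for Ednrb and Gpihbp1, and Car4 with Ednrb lies above it.

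The first comparison between the groups was the make-up of the capillary cells. The paper already reports more cluster 0 cells and a smaller proportion of clusters 1 and 2 in BOS grafts. It reads clusters 1 and 2 as epithelial. Shares here are of clusters 0, 1 and 2 alone. Cluster 2, where Car4, Ednrb and Apln are highest, made up 13.2, 37.3, 30.2, 20.2 and 33.96% of capillary cells in B6→B6 replicates 1 to 5. In HLA→B6 replicates 1 to 3 it made up 0.897% (14 of 1561 cells, exact 95% binomial interval 0.491 to 1.5002%), 8.80% (52 of 591, 6.64 to 11.4%) and 10.5% (25 of 239, 6.88 to 15.1%). Every HLA→B6 mouse was below every B6→B6 mouse. The mean was 27.0% ± 10.0 (SD, n = 5) and 6.72% ± 5.11 (SD, n = 3), a difference of -20.3 percentage points (exact permutation test, two-sided, p = 0.0357, the smallest that 56 splits of the mice can give). Within linked and within unlinked libraries the mean difference was -19.75 points (exact p = 0.0833, the smallest that these restricted splits can give). Capillary cells had a median depth of 964 to 1362 UMIs in B6→B6 and 820 to 1012 UMIs in HLA→B6 mice, and with cells of at least 500 UMIs alone the difference was -20.5 points. The intervals cover counting error only, and how the tissue was dissociated sets which cells are captured.

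The share of capillary cells with a UMI of Ednrb at 500 UMIs per cell was 5.36, 9.08, 9.03, 8.81 and 13.4% in B6→B6 and 0.319, 2.06 and 3.62% in HLA→B6 mice. The groups did not overlap, and the means were 9.13% ± 2.84 (SD, n = 5) and 2.00% ± 1.65 (SD, n = 3; exact permutation test, two-sided, p = 0.0357, adjusted over all genes 0.632). Of 6313 genes in this comparison, 5.65% had groups that did not overlap (2.96% with HLA→B6 lower), and Ednrb was the only one of the members. For Car4 the shares were 16.01, 39.5, 38.6, 29.0 and 40.8% in B6→B6 and 15.1, 11.4 and 17.7% in HLA→B6 mice. B6→B6 replicate 1 lay among the HLA→B6 mice, and the difference of -18.0 points had an exact permutation p of 0.0714. For Gpihbp1 the shares were 53.3% ± 3.20 (SD, n = 5) and 56.2% ± 2.72 (SD, n = 3), with an exact permutation p of 0.250. With the 3 clusters given equal weight in every mouse, the difference was -4.98 points for Car4 and -2.57 points for Ednrb, whose exact permutation p was then 0.214. For Gpihbp1 the difference turned to -5.95 points under this weighting (exact permutation p = 0.0357), and for Apln and Plvap it also changed sign.

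**Figure D3:**
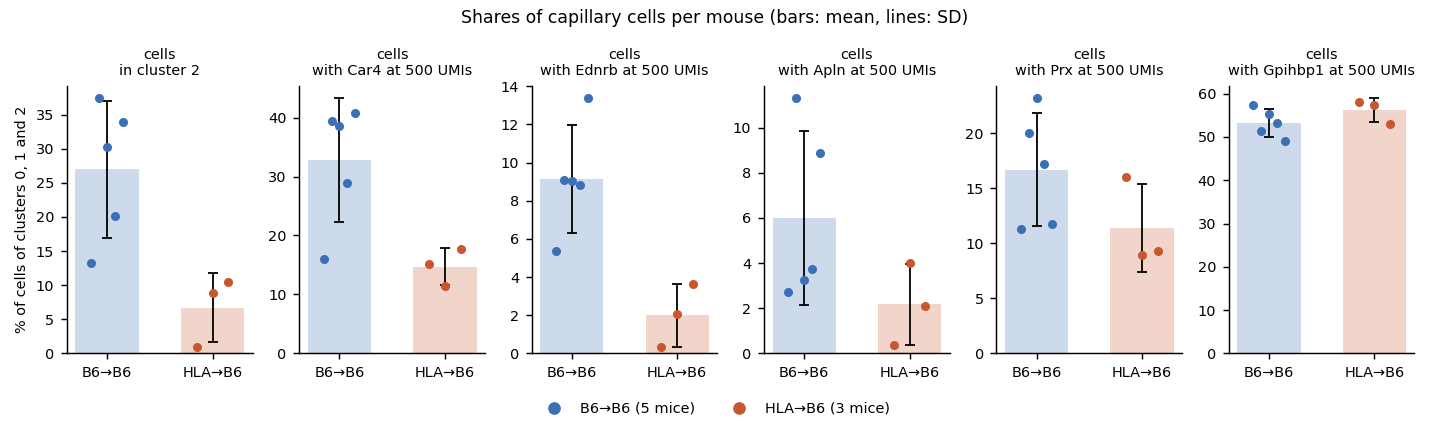
Percent of the cells of clusters 0, 1 and 2 (y axis) that lie in cluster 2 or have a UMI of the named gene at 500 UMIs per cell, in B6→B6 and HLA→B6 mice (x axis). Each point is 1 mouse, bars are group means and lines are SD. Cluster 2 makes up 0.897 to 10.5% in the HLA→B6 mice, all below the B6→B6 mice, as is the case for Ednrb and not for Car4 or Gpihbp1.

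Levels over all structural cells of a mouse were compared next, with edgeR's quasi-likelihood test over 8109 genes. Car4 stood at 1167, 1182, 1674, 1077 and 546 CPM in B6→B6 and at 346, 728 and 286 CPM in HLA→B6 mice. The groups overlapped in 1 pair, B6→B6 replicate 5 with HLA→B6 replicate 2, and the log2 fold change was -1.36 (SE 0.27, edgeR adjusted p = 0.0503). Ednrb stood at 197, 162, 210, 184 and 87.0 CPM in B6→B6 and at 8.16, 53.3 and 49.6 CPM in HLA→B6 mice. These groups did not overlap, and the log2 fold change was -2.15 (SE 0.58, edgeR adjusted p = 0.182). In such sums fewer cells of a type and less RNA per cell cannot be told apart.

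None of the 10 members passed an adjusted p of 0.05 in edgeR in this comparison, in which 0.604% of all genes were called (0.185% lower). An unadjusted p under 0.05 was found for 4 members, Car4, Ednrb, Fabp4 and Rbp7, as for 676 of all 8109 genes. Too few HLA→B6 mice reached the filter on low counts for Ednrb, Fabp4 or Rbp7, so they passed it only through B6→B6 mice. Their p in filtered fits is therefore no support for a lower level in HLA→B6 mice. DESeq2 called 97 of 16778 genes, among them 2 members, Car4 (adjusted p = 1.11e-04) and Ednrb (adjusted p = 0.0212). With no filter on low counts edgeR called Car4, Ednrb, Fabp4 and Rbp7, among 130 of 16809 genes. With doublets left out it called Car4 (edgeR adjusted p = 0.0491), among 50 of 8090 genes. Without HLA→B6 replicate 3 it called Ednrb (edgeR adjusted p = 0.0388), among 71 of 8709 genes. Car4 was called in no fit that left out a mouse. Of the 10 members 1, Ednrb, had groups that did not overlap, as had 0.925% of all genes (0.493% lower). When the cells of cluster 2 were left out, an alternative added after seeing the data, the log2 fold change of Car4 was 0.09 (SE 0.47, edgeR adjusted p = 1.00) and that of Prx was 0.54 (SE 0.48), and Ednrb and Apln no longer passed the filter on low counts. Over all structural cells, cluster 2 included, Gpihbp1 had a log2 fold change of 0.26 (SE 0.18), Plvap of 0.14 (SE 0.37) and Aplnr of -0.25 (SE 0.35), and without cluster 2 these were 0.11, -0.15 and -0.56. Structural cells include red blood cells, whose 3 erythroid markers summed to 50774 to 526391 CPM in B6→B6 and 57169 to 410477 CPM in HLA→B6 mice, and their part in these levels was not tested.

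Within cluster 2 the levels of the aerocyte genes overlapped between the groups. There the log2 fold change was -0.08 for Car4 (SE 0.22, edgeR adjusted p = 0.930), -0.47 for Ednrb (SE 0.33, edgeR adjusted p = 0.609), 0.20 for Apln (SE 0.37) and -0.16 for Prx (SE 0.31). These fits had 14 to 185 cells per mouse. None of the 6 members tested in cluster 2 was called by edgeR or DESeq2, 1 had an unadjusted p under 0.05, and 0.243% of 1643 genes were called. None of the 6 had groups that did not overlap, against 9.19% of all genes. That member with the low p was Tmem100, at 2360, 2162, 1971, 2443 and 1843 CPM in B6→B6 and 2049, 886 and 1442 CPM in HLA→B6 mice. The groups overlapped through HLA→B6 replicate 1, and the log2 fold change was -0.59 (SE 0.24, edgeR adjusted p = 0.333). In clusters 0 and 1 the fold changes of Tmem100 were -0.54 (SE 0.36) and -0.54 (SE 0.37), neither of them called.

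In cluster 0 none of the 6 members tested was called by edgeR or DESeq2 and none had an unadjusted p under 0.05, while 0.686% of 3645 genes were called and 4.53% had groups that did not overlap, none of them a member. The largest fold change there was that of Aplnr, -0.78 (SE 0.40, edgeR adjusted p = 0.690), and Gpihbp1 was at -0.04 (SE 0.29). Differences between clusters in the effect of the group were tested as interactions. No member was called for cluster 1 against cluster 0, where edgeR called none of 3526 genes, 107 of them with an unadjusted p under 0.05, and DESeq2 none of 15607. Nor was a member called for cluster 2 against cluster 0, where edgeR called 0.296% of 3039 genes and DESeq2 none of 15181. Of the members, 0 and 1 had an unadjusted p under 0.05 in these tests. That 1 was Apln, for cluster 2 against cluster 0 (difference of log2 fold changes -2.92, SE 1.08, edgeR adjusted p = 0.419). It rests on few counts, since Apln in cluster 0 had 0, 0, 0, 0 and 1 UMIs in B6→B6 and 9, 17 and 0 in HLA→B6 mice. For Car4 the difference of log2 fold changes was -0.16 (SE 0.34) and -0.10 (SE 0.41).

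**Figure D4:**
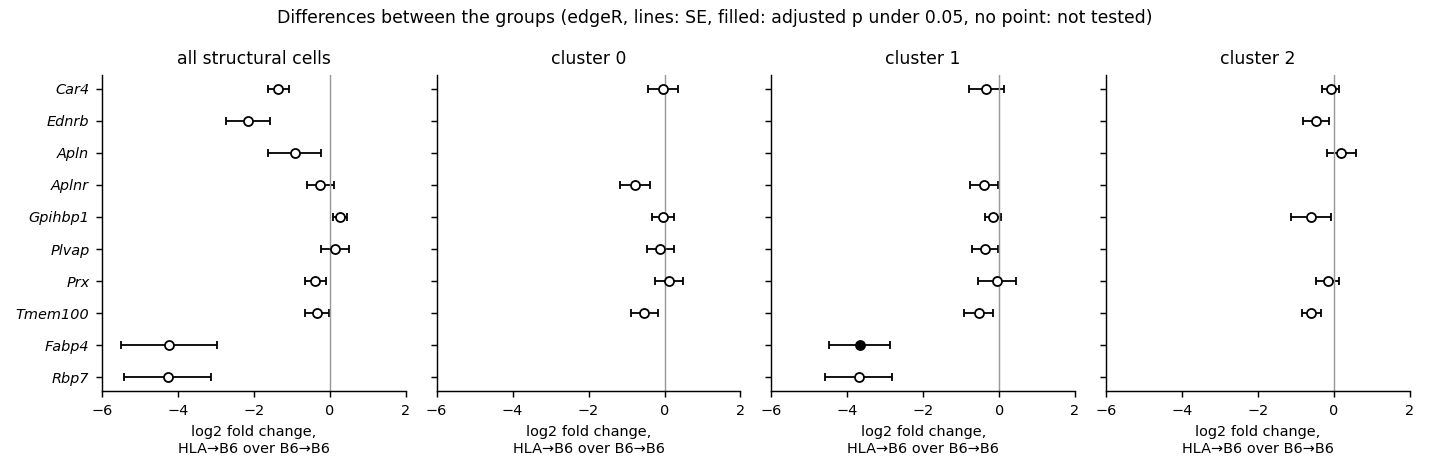
Log2 fold change of HLA→B6 over B6→B6 (x axis) for each of the 10 genes in sums over all structural cells and over clusters 0, 1 and 2, from edgeR. Lines are SE, a filled point has an adjusted p under 0.05 and a missing point was not tested. Car4 is at -1.36 over all structural cells and at -0.08 within cluster 2, and the filled point is Fabp4 in cluster 1.

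The 1 member that edgeR called within a capillary cluster was Fabp4 in cluster 1, where 1.02% of 2348 genes were called (0.0852% lower). None of the 8 members tested there had groups that did not overlap, against 5.62% of all genes. It stood at 612, 605, 113, 1553 and 0 CPM in B6→B6 and at 50.5, 83.4 and 8.02 CPM in HLA→B6 mice, from 15, 9, 11, 1062 and 0 UMIs and from 14, 12 and 1 UMIs. The B6→B6 mice were on both sides of the HLA→B6 mice, since replicate 5 had none, in only 17 cells. The log2 fold change was -3.67 (SE 0.81, edgeR adjusted p = 0.0327). Fabp4 passed the filter on low counts only through B6→B6 mice with high levels, so this p is no support for that direction. The call was lost without B6→B6 replicate 4 (log2 fold change -2.29, edgeR adjusted p = 0.373), and also without B6→B6 replicates 1 or 2 or HLA→B6 replicate 1 (edgeR adjusted p = 0.0728, 0.0719 and 0.206). DESeq2 gave Fabp4 an adjusted p of 0.694 and called Rbp7 instead, among 17 of 14187 genes. In B6→B6 replicates 1, 2 and 3 all UMIs of Fabp4 in cluster 1 came from 1 cell per mouse, of 19, 13 and 92 cells.

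Rbp7 moved with Fabp4 in cluster 1, at 245, 336, 30.9, 120 and 0 CPM in B6→B6 and at 3.61, 20.9 and 0 CPM in HLA→B6 mice. These levels come from 6, 5, 3, 82 and 0 UMIs and from 1, 3 and 0 UMIs. The log2 fold change was -3.70 (SE 0.89, edgeR adjusted p = 0.0598, DESeq2 adjusted p = 0.0489). Rbp7 passed edgeR's filter on low counts only through B6→B6 mice with high levels, so its p in filtered fits is no support for that direction. It passed 0.05 in 7 of 12 alternatives, among them no filter on low counts (edgeR adjusted p = 4.354e-05), linked libraries as a block (0.0258), the replicate block (0.0496) and leaving out B6→B6 replicates 3 or 5 or HLA→B6 replicate 2 (edgeR adjusted p of 0.00971, 0.0249 and 0.0350). Without HLA→B6 replicate 1 the edgeR adjusted p was 0.365, and without B6→B6 replicates 1, 2 or 4 Rbp7 was not tested. Of the 20 cells of cluster 1 with Rbp7, 17 also had Fabp4. Macrophage markers in cluster 1 summed to 0 to 329 CPM over 5 genes in B6→B6 and to 697 to 2301 CPM in HLA→B6 mice, and 3 erythroid genes to 0 to 681 and 1735 to 9914 CPM. Their part in these results was not tested.

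**Figure D5:**
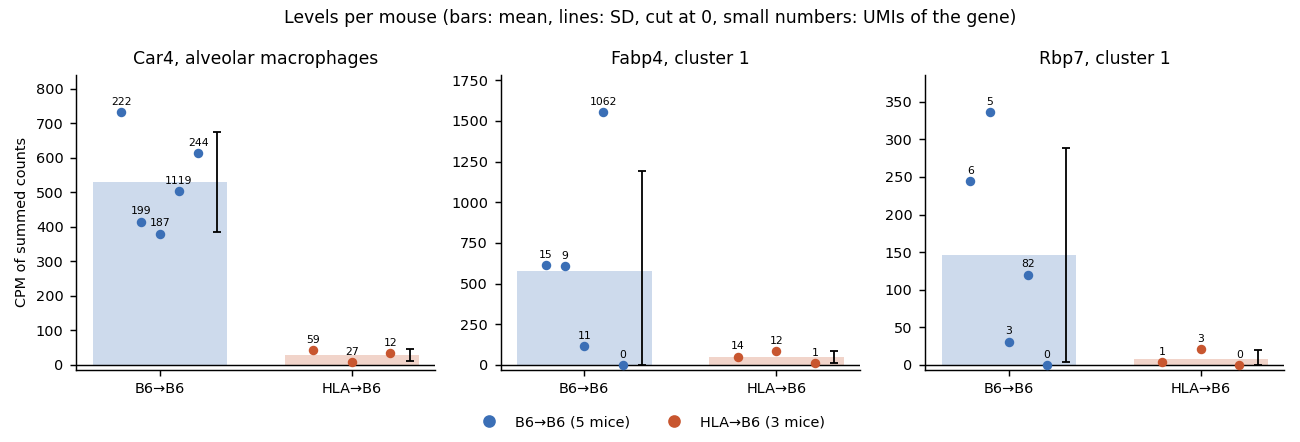
CPM of summed counts (y axis) of Car4 in alveolar macrophages and of Fabp4 and Rbp7 in structural cluster 1, in B6→B6 and HLA→B6 mice (x axis). Points are mice with the UMIs of the gene beside them, bars are means and lines are SD, cut at 0. Car4 is at 380 to 732 CPM in B6→B6 and at 7.35 to 41.9 CPM in HLA→B6 mice, and the highest Fabp4 point rests on 1062 UMIs of 1 mouse.

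Car4 was also compared in alveolar macrophages, a comparison added after seeing its level there. It stood at 732, 415, 380, 503 and 613 CPM in B6→B6 and at 41.9, 7.35 and 33.6 CPM in HLA→B6 mice, from 187 to 1119 and from 12 to 59 UMIs. The lowest B6→B6 mouse was above the highest HLA→B6 mouse, and at 500 UMIs per cell 17.7, 9.82, 15.6, 17.6 and 17.2% of macrophages had a UMI in B6→B6 against 2.64, 0.178 and 0.994% in HLA→B6 mice. The log2 fold change was -4.19 (SE 0.49, edgeR adjusted p = 0.00279), and it was called in all 17 alternatives, from -4.91 to -3.57 with 1 mouse left out. Of 5798 genes tested in these cells, 12.3% were called (5.92% lower) and 22.9% had groups that did not overlap (17.7% lower), so Car4 was 1 of 712 called genes. The alternative without shared barcodes kept 100 of 159 macrophages in B6→B6 replicate 1 and 136 of 284 in replicate 2. It called 986 of 5454 genes. Gpihbp1, which is abundant in capillary cells, was at 3.52 ± 4.84 CPM (SD, n = 5) in B6→B6 and 0.564 ± 0.754 CPM (SD, n = 3) in HLA→B6 macrophages. The other member tested there, Fabp4, had a log2 fold change of 0.71 (SE 0.28, edgeR adjusted p = 0.114).

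Further genes of each cell type were read from lists. Of 12 aerocyte genes beside the members, 1 fell over all structural cells, the cell cycle inhibitor Cdkn2b (log2 fold change -2.40, SE 0.40, edgeR adjusted p = 0.0234). The call was lost without B6→B6 replicates 2 or 4 or HLA→B6 replicates 1 or 2 (edgeR adjusted p of 0.0514, 0.0934, 0.179 and 0.144). The median log2 fold change of the 12 was -1.11 against -0.01 over all genes, and 11 of the 12 were below 0. Of these genes 7 had an unadjusted p under 0.05 in edgeR, as had 676 of all 8109 genes. DESeq2 called 4 of the 12, Fibin, Cdkn2b, Rprml and Emp2, among 97 of 16778 genes. Of 12 general capillary genes, 1 rose, the adhesion receptor Adgrl3 (log2 fold change 1.12, SE 0.21, edgeR adjusted p = 0.0372), a call that held without B6→B6 replicates 1 or 5 only, and with adjusted p between 0.0611 and 0.179 without any of the other 6 mice. The median of this list was 0.08, 3 of its genes had an unadjusted p under 0.05, and DESeq2 called 1, Adgrl3. None of 14 tested partners of the members, such as endothelin, ALK1 and lipid handling genes, was called, with a median of -0.22, and none of 10 pan-endothelial genes, with a median of -0.13. DESeq2 called none of these either, and 4 of the partners and 0 of the pan-endothelial genes had an unadjusted p under 0.05 in edgeR.

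Within clusters 0, 1 and 2 no gene of these 4 lists was called by edgeR, while 4 of 38, 7 of 38 and 13 of 31 had an unadjusted p under 0.05. Over all genes these counts were 280 of 3645, 183 of 2348 and 210 of 1643. DESeq2 called 0, 0 and 3 genes of the lists, of 15, 17 and 23 in all, and the 3 were Id1, Acvrl1 and Cldn5. In cluster 2 the 9 tested aerocyte genes had a median of -0.32, with all 9 below 0, against -0.01 over all genes, and Fibin had the largest fold change (-1.94, SE 0.68, edgeR adjusted p = 0.250). The 10 pan-endothelial genes had a median of -0.51 there, with 9 below 0. Of the partners of Tmem100 in cluster 2, Smad6, an inhibitor of BMP signalling, was at -1.46 (SE 0.40, edgeR adjusted p = 0.180) and Id1, a BMP target, at -1.05 (SE 0.26, edgeR adjusted p = 0.117). The arterial and venous lists had 5 tested genes each over all structural cells, none called by edgeR or DESeq2 and 1 and 3 with an unadjusted p under 0.05, with medians of -0.04 and -1.05.

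The genes whose pattern was most like that of Car4 were Pwwp2b, Enho, Mertk, Acvrl1 and Mgll (Pearson r of log2 CPM 0.858 to 0.844 over 21 clusters and cell types, 9539 genes ranked). For Gpihbp1 they were Egfl7, Clec14a, Aqp1, Ramp2 and Afap1l1 (r of 0.977 to 0.965). Among the members, Gpihbp1 and Tmem100 were most alike (r of 0.951) and Prx and Fabp4 least (r of 0.0715). The 21 points share libraries and differ in depth, and no test was made.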

How the data were processed

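Single cells of 8 grafts (5 B6→B6, 3 HLA→B6) were measured. The authors deposited whole UMI counts per gene and cell, made with Cell Ranger on mm10 (GRCm38), and clusters and cell names made with Seurat; their methods describe removal of free RNA with SoupX, and the sources used here do not say whether the deposited counts precede or follow it. All 20778 cells were kept, samples came from the table of cells, and 0 columns of values were unused. Depth was 1356 to 1948 UMIs per cell in the median, and levels were taken as sums over cells; intervals cover counting error only. A library is 1 mouse.

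For each mouse and cluster with at least 10 cells, counts were summed. edgeR 4.0.16 (R 4.3.3) then kept genes by filterByExpr at its minimum count of 10, scaled the sums by TMM and tested them with glmQLFit and glmQLFTest, with a Benjamini-Hochberg adjusted p of 0.05 over all tested genes. The interaction fits took clusters of the same mice together with the mouse as a block. DESeq2 1.42.0 was an alternative. CPM in the text are not TMM scaled. A share is the mean probability of at least 1 UMI when each cell is thinned to 500 UMIs, which left out 340 of 4240 capillary cells (111 of 1849 in B6→B6, 229 of 2391 in HLA→B6), and compared by an exact permutation test over the 56 splits of the mice (scipy 1.17.1 and pandas 2.3.3 under Python 3.11.15). Scrublet in scanpy 1.11.5 marked 256 cells (1.23%) as doublets, which were kept, and left out in an alternative. A gene at 0 was read as at most 3 counts.

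The genes named are the 10 members, genes of the lists past the threshold or with the 2 largest fold changes per list, and the 5 genes most like Car4 and Gpihbp1. The members and lists were chosen with earlier results of these data known. The comparison in alveolar macrophages, the Fabp4-rich cells and the fit without cluster 2 were added after seeing the data. Gene positions are from GENCODE for GRCm38, in which 17711 of 17921 names were found; promoters were held for 5 of the 10 members. On simulated counts with 200 genes changed 4-fold, edgeR called 90 to 94.5% of them per comparison (71 to 72.5% for interactions). Of these calls 2.58 to 6.53% were false, and with no change it made at most 1 call. How often a real gene changed 4-fold is called was not tested. Over all structural cells Cdkn2b, at a log2 fold change of -2.40, was called. Ednrb at -2.15, Fabp4 at -4.24 and Rbp7 at -4.27 were not. The labels do not name same-numbered mice of the 2 groups as pairs. Their deviations correlated at 0.115, 0.035 and -0.166, which cannot settle whether they were handled together. Cell names of the HLA→B6 mice carry numbers that do not follow the sample names, and the sample names were used here.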

Additional observations from a re-analysis of the deposited data

Results flagged for a closer look

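In 7 of 48 groups of B6→B6 values tested, 1 mouse stood far from the other 4, where chance flags about 1 in 20 groups, or 2.4. Over all structural cells these were Apln in replicate 2 (204 CPM from 53 UMIs, others 62.5 to 89.0), Plvap in replicate 1 (1391 CPM, others 261 to 585) and Fabp4 in replicate 4 (614 CPM from 1166 UMIs, others 0 to 143). In B6→B6 replicate 5, which had 53 capillary cells, 3 values stood apart: Aplnr in cluster 0 was high (1049 CPM from 15 UMIs, others 62.8 to 250), Prx in cluster 2 was low (469 CPM from 15 UMIs, others 1033 to 1182) and Tmem100 in cluster 0 was low (1119 CPM from 16 UMIs, others 3730 to 4597). In alveolar macrophages Tmem100 was at 28.8 CPM in replicate 4 (64 UMIs, others 0 to 6.59).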

How the results depend on the processing

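Of 892 single-gene values under alternatives, 777 kept direction and side of the threshold, 40 lost a call, 17 gained one and 58 changed sign. Except where a setting changes the genes or mice tested, the cause of a change was not tested. Shallow cells and 3 HLA→B6 mice limit all comparisons.

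Genes called over all structural cells were 49, against 97 with DESeq2, 130 with no filter on low counts and 11 without cluster 2. In cluster 0 they were 25, against 15 (DESeq2), 115 (no filter) and 38 (at least 20 cells per mouse). In cluster 1 they were 24, against 89 (no filter), 1 (20 cells) and 43 (linked libraries as a block), and in cluster 2 they were 4, against 23 (DESeq2), 59 (no filter), 10 (20 cells) and 19 (linked block). The interaction of cluster 2 with cluster 0 had 9, against 0 (DESeq2) and 15 (20 cells), and alveolar macrophages had 712, against 1083 (no filter) and 1274 (linked block). The cluster 2 share differed by -19.75 points within linked and unlinked libraries (exact permutation p = 0.0833, the smallest possible there). Members whose share did not overlap were 1, against 2 when thinned to 300 UMIs and 2 over all structural cells.

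By the labels same-numbered mice share only a number, and HLA→B6 replicates 1, 2 and 3 correlated best with B6→B6 replicates 3, 1 and 5. With the replicate number as a block (6 mice), calls were 15 over structural cells, 89, 39 and 11 in clusters 0, 1 and 2, 8 and 21 for the interactions of clusters 1 and 2, and 257 in macrophages, and the cluster 2 share differed by -20.2 points (exact permutation p = 0.250, the smallest possible there). Log2 fold changes that turned with this block were Aplnr over structural cells (0.00194), Car4 in clusters 0 (0.43) and 1 (0.49), Prx in cluster 1 (0.23), and the interactions of Car4 (0.67), Gpihbp1 (0.27) and Tmem100 (0.45) in cluster 1 and of Tmem100 in cluster 2 (0.22).

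Other log2 fold changes that turned were, without cluster 2 cells, Car4 (0.087), Plvap (-0.15) and Prx (0.54) over structural cells; with no filter, Car4 (0.075), Gpihbp1 (0.10) and Plvap (0.051) in cluster 0 and Gpihbp1 (0.079) and Prx (0.12) in cluster 1. The linked block turned Gpihbp1 (0.16) and Prx (-0.199) in cluster 0, DESeq2 turned Prx in cluster 1 (0.27), and at least 20 cells turned Plvap in cluster 1 (0.38) and the cluster 2 interactions of Gpihbp1 (0.093) and Tmem100 (0.026). Cells of at least 500 UMIs turned the cluster 1 interaction of Gpihbp1 (0.0048). With equal weight of the clusters the shares of Apln (0.785), Gpihbp1 (-5.945) and Plvap (-3.398) turned, in points.

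With 1 mouse left out, calls ranged from 10 to 71 over structural cells, 2 to 52, 14 to 53 and 2 to 14 in clusters 0, 1 and 2, 0 to 1 and 1 to 23 for the interactions, and 180 to 829 in macrophages. The cluster 2 share differed by -23.7 to -17.35 points, and 1 to 3 members did not overlap. Log2 fold changes that turned were Plvap over structural cells (-0.077 to 0.49); Car4 (-0.40 to 0.37), Gpihbp1 (-0.16 to 0.15), Plvap (-0.39 to 0.071) and Prx (-0.49 to 0.42) in cluster 0. In cluster 1 they were Car4 (-0.69 to 0.0056) and Prx (-0.37 to 0.30), and in cluster 2 Car4 (-0.35 to 0.071), Apln (-0.23 to 0.44) and Prx (-0.33 to 0.10). Interactions were Car4 (-0.40 to 0.032), Gpihbp1 (-0.28 to 0.031) and Tmem100 (-0.35 to 0.17) in cluster 1, and Car4 (-0.48 to 0.42) and Tmem100 (-0.26 to 0.085) in cluster 2. The Plvap share ranged from -0.556 to 8.1 points.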
